A study of Mus musculus with 2 samples.

Results

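The genes of cholesterol and fatty acid synthesis that act under or around the transcription factors SREBP1 and SREBP2 were compared between a library labelled IR and a library labelled NC. The members were 39 gene symbols, and a member was found where the gene name in the count table equalled the symbol. The table held 36 of them among its 14694 genes, and 35 had at least 50 reads over both libraries, the minimum for a comparison. Mvd, Elovl6 and Msmo1 were not found under these symbols, although Msmo1 had a row under its former symbol Sc4mol. By role the members in the table were 17 enzymes of sterol synthesis, 5 genes that control SREBP, 6 genes of sterol transport, storage and oxysterol sensing, and 8 genes of fatty acid synthesis and desaturation.

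SREBPs are made as membrane proteins of the endoplasmic reticulum and are held there, with their escort SCAP, by INSIG proteins while sterols are plentiful. When sterols fall, SCAP carries SREBP to the Golgi, where proteases release the part that enters the nucleus and binds sterol regulatory elements in promoters. SREBP2 mainly drives cholesterol synthesis and uptake, SREBP1 mainly fatty acid synthesis, and the liver X receptors, which bind oxysterols, drive sterol export and the gene of SREBP1. In the lung this lipid supply is best known from the surfactant of alveolar type II cells, and fibroblasts use the same genes for their membranes.

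RNA labelled as coming from mouse lung fibroblasts was sequenced after removal of ribosomal RNA, with 1 library per group. The series concerns pulmonary fibrosis after irradiation and rosmarinic acid, but the labels of these libraries give neither a treatment, dose, time, strain or age nor the meaning of IR, NC and the number 4 that both carry. The labels' protocol starts from culture supernatants that were spun and filtered, so whether cells or vesicles gave the RNA is not stated. Neither group has a second library, so nothing was tested for significance and no spread between replicates is known. Every difference below is one between these 2 libraries and not between conditions.

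The libraries held 35219511 counted reads (IR) and 36084512 (NC). Of the fibroblast markers, 9 of 12 had a row, and their summed level was 4952 CPM (reads scaled to a common library size) in IR and 5760 in NC. Vim gave 44.3% and 31.6% of these sums, while Thy1, Lum and Tcf21 had no row. The abundant markers differed in both directions. Vim (2195 CPM in IR and 1820 in NC) and S100a4 (679 and 408) were higher in IR. Fn1 (1417 and 2472) and Col1a2 (538 and 890) were higher in NC. The less abundant Pdgfra (53.6 and 71.3), Pdgfrb (45.3 and 60.7), Col3a1 (16.2 and 18.9) and Col1a1 (7.83 and 18.9) were also higher in NC. Dcn was higher in IR but had only 30 reads in IR and 7 in NC. Of the alveolar type II markers, 5 of 8 had a row, with sums of 66.0 CPM in IR and 79.3 in NC. Abca3 gave 92.7% and 87.0% of these sums, and the defining marker Sftpc had 0 reads in IR and 2 in NC. The macrophage sums were 124 and 130 CPM from 5 of 8 markers. Cd68 gave 67.1% and 46.2% of these sums and was higher in IR, with 2903 and 2188 reads. Cd14 (1257 and 2287 reads) and Lyz2 (164 and 261) were higher in NC. Ptprc had 4 and 0 reads and Csf1r 1 and 4. Adipocytes, which are rich in lipid synthesis, had sums of 10.3 CPM in IR and 11.4 in NC from 6 of 8 markers. Cebpa gave 57.2% and 56.8% of these sums, with no row for Adipoq or Lep and 2 reads of Pparg in each library. The part of the differing fibroblast sums in the results was not tested, and in such bulk RNA fewer cells of a type and less RNA per cell cannot be told apart.

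The promoters of 6 enzymes are shown here because each holds at least 1 CCAAT box, which is common before the start of sterol synthesis genes, and Hmgcs1 also holds the sterol regulatory element. Their log2 ratios of IR over NC run from 0.14 (Ebp) to 0.95 (Sc5d) and do not cover the members at or under equality. Each is the sequence before the RefSeq transcription start on GRCm38.p6, read 5′ to 3′ in the direction of the gene, without bases that lie in annotated exons. Hmgcs1 lies on the plus strand at chr13:119690101-119690350, Mvk on the plus strand at chr5:114444061-114444268 and Lss on the plus strand at chr10:76531355-76531587. Sc5d lies on the minus strand at chr9:42264301-42264550, Ebp on the minus strand at chrX:8193513-8193762 and Fasn on the minus strand at chr11:120824548-120824797. Capitals mark matches to 3 motifs, which are TCACNCCAC (the sterol regulatory element), CCAAT (the box bound by NF-Y, a partner of SREBP) and CACGTG (the E-box), each on either strand, so that CCAAT on the other strand reads ATTGG.
Hmgcs1: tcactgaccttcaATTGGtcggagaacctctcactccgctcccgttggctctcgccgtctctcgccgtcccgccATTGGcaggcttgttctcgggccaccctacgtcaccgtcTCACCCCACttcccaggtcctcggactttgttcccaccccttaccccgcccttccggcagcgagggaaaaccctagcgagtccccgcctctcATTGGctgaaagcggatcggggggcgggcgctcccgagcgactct
Mvk: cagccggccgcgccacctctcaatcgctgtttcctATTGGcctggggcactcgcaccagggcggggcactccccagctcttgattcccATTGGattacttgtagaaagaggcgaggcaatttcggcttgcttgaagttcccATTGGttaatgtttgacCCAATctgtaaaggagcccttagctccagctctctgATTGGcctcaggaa
Lss: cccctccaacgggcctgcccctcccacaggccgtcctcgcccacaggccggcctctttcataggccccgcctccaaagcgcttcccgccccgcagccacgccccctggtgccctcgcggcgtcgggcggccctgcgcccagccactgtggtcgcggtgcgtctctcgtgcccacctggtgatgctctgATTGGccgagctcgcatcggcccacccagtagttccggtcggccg
Sc5d: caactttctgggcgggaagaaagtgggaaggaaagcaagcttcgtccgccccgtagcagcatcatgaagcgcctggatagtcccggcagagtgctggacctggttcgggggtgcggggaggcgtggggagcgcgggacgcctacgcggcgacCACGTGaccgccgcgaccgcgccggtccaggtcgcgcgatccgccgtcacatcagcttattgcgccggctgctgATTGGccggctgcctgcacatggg
Ebp: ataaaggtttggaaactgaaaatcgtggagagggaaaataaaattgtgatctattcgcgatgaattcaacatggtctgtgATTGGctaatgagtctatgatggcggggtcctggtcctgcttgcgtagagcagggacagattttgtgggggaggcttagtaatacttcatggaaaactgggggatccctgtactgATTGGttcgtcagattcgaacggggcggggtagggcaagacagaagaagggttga
Fasn: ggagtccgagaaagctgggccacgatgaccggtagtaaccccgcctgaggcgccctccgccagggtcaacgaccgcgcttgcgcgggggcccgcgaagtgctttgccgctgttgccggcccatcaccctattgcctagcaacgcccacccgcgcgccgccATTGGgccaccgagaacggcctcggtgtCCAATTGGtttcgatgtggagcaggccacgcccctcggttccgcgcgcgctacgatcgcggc

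The mRNAs of sterol synthesis were mostly more abundant in the IR library. Of the 17 enzymes, 12 were higher in IR by at least 25% with a counting interval that excluded equality, and 0 were higher in NC by that rule. This is 70.6% of the enzymes, against 15.2% of all 10921 genes compared that were higher in IR by the rule and 17.2% that were higher in NC. Counting intervals lay above equality for 14 enzymes and below it for 0, against 31.2% and 32.4% of all genes. The median log2 ratio of IR over NC was 0.45 (lowest -0.02, highest 0.95), against -0.0069 for all genes. The enzymes are genes of the same 2 libraries and not replicates, so no interval is given for this median. The 2-fold rule was met by 0 of the 35 members in either direction, against 1.6% of all genes higher and 1.82% lower. Fold intervals below are exact 95% intervals (Clopper-Pearson) and cover counting error only.

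The first steps turn acetyl-CoA into mevalonate and then into isoprenoid diphosphates. Fdps, which makes farnesyl diphosphate, the branch point between sterols and prenyl groups, lies at chr3:89093588-89101959 on the minus strand (GRCm38) and had 5390 reads in IR and 3073 in NC. IR was thus 1.83-fold higher (1.75 to 1.92). Mvk, the mevalonate kinase, had 2383 reads in IR and 1544 in NC, a 1.61-fold difference (1.51 to 1.72) in the same direction. Both differences were far wider than their counting error. Hmgcs1, the cytosolic synthase that makes HMG-CoA, was a low gene with 290 reads in IR and 207 in NC, or 1.46-fold higher in IR (1.22 to 1.76). Acat2, the cytosolic thiolase that makes acetoacetyl-CoA, had 1386 reads in IR and 1098 in NC (1.32-fold, 1.22 to 1.43). Pmvk, the phosphomevalonate kinase, had 1316 and 1058 reads (1.30-fold, 1.2 to 1.41). These 3 enzymes were therefore higher in IR by smaller factors than Fdps and Mvk. The remaining early enzymes had few reads. Idi1, which interconverts the isoprenoid units, had 54 reads in IR and 57 in NC. Ggps1, which makes geranylgeranyl diphosphate for protein prenylation, had 56 and 50 reads. Both intervals included equality, and at this depth folds of 0.669 to 1.46 for Idi1 and 0.784 to 1.75 for Ggps1 could not be told apart.

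All 3 enzymes from farnesyl diphosphate to lanosterol were higher in IR, by unequal factors. Lss, the cyclase that folds oxidised squalene into lanosterol, had 2342 reads in IR and 1308 in NC, a 1.87-fold difference (1.75 to 2.0). Fdft1, the squalene synthase that commits the pathway to sterols, had 4964 reads in IR and 4125 in NC, or 1.26-fold more in IR (1.21 to 1.31). It passed the 25% rule narrowly. Sqle, the squalene epoxidase that is a main point of flux control, had 979 and 859 reads (1.19-fold, 1.09 to 1.31) and did not pass it.

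Among the enzymes that turn lanosterol into cholesterol, 5 of 7 (71.4%) were higher in IR by the 25% rule, against 15.2% of all genes. Sc5d, a sterol desaturase of the last steps, had 837 reads in IR and 453 in NC. Its ratio was the highest of all members at 1.93-fold (1.72 to 2.17), and 1.88% of all genes had a higher one. Tm7sf2, a sterol reductase of the nuclear envelope and endoplasmic reticulum, had 254 reads in IR and 140 in NC (1.88-fold, 1.54 to 2.35). Dhcr7, the reductase that yields cholesterol, had 1221 and 814 reads (1.57-fold, 1.43 to 1.71). Hsd17b7 and Nsdhl, which act in the removal of methyl groups from the sterol ring, were also higher in IR. Hsd17b7 had 168 reads in IR and 119 in NC (1.47-fold, 1.16 to 1.88), and Nsdhl had 818 and 625 (1.36-fold, 1.23 to 1.52). The pathway was not uniform here. Cyp51, the lanosterol demethylase that starts this stretch, had 1476 reads in IR and 1546 in NC, a ratio of 0.997 (0.928 to 1.07) after scaling. Ebp, a sterol isomerase, had 2314 and 2192 reads and a ratio of 1.10 (1.04 to 1.17). Sc4mol, the former symbol of Msmo1, the sterol methyl oxidase, is not counted among the enzymes, and it had 1175 reads in IR and 744 in NC (1.65-fold, 1.5 to 1.81).

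**Figure D1:**
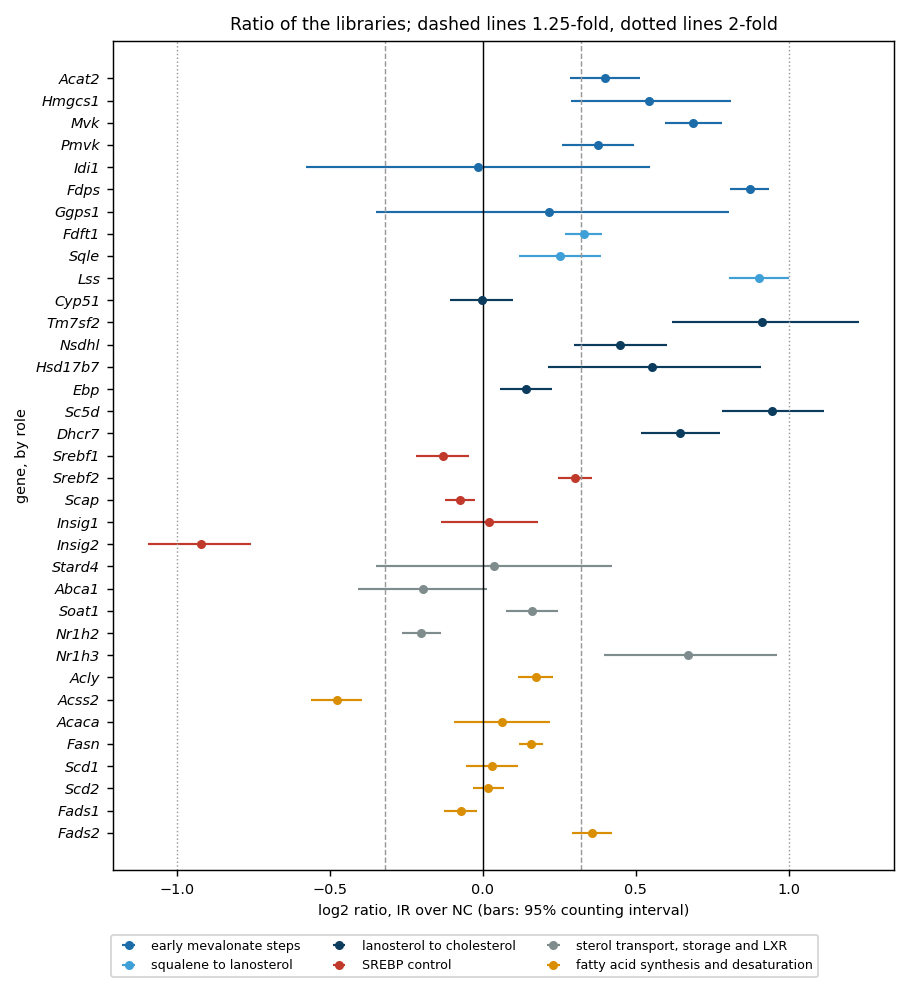
Log2 ratio of the IR over the NC library (horizontal axis) for the 35 members compared, ordered by role, with bars for the exact 95% counting interval and lines at the 25% rule (dashed) and 2-fold (dotted). Most sterol synthesis enzymes lie right of the zero line, with Sc5d highest at 0.95, while Insig2 lies farthest left at -0.92.

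The plot of ratios by role shows the enzymes of sterol synthesis spread between -0.02 and 0.95 on the log2 scale, with Idi1 and Cyp51 as the only ratios under equality among the 17. The medians were 0.40 for the early mevalonate steps, 0.33 for squalene to lanosterol and 0.55 for lanosterol to cholesterol. Summed over the 17 enzymes, sterol synthesis took 752 CPM in IR (743 to 762, Poisson interval) and 529 in NC (521 to 536), a 1.42-fold difference (1.40 to 1.45). Fdps gave 20.5% of this sum in IR and 15.9% in NC, while Fdft1 gave 18.9% and 21.4%. The sum of the early mevalonate steps differed 1.6-fold and that of the lanosterol to cholesterol steps 1.26-fold, the reverse of the order of their medians. The abundant Ebp and Cyp51 held 32.6% and 20.8% of the latter sum in IR.

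The counting of some of these genes is uncertain. Whether reads were assigned by strand is not given, and exons of Fdps overlap Gm43738 over 26.7% of their length, those of Fdft1 overlap Ctsb over 18.3%, those of Hmgcs1 overlap Gm48342 over 12.1% and those of Tm7sf2 overlap Vps51 over 12.1%. Of the 50-base words of Acat2, 45.9% also occur in other genes, most in its relative Acat3. Fdft1 shares 30.7% of its words, most with Ctsb, and Idi1 30.5%, most with Gm13502. Lower shares were those of Hmgcs1 (13.6%, most with Gm48342), Ggps1 (11.8%, most with Gm5630) and Fdps (11.7%, most with Gm43738). Fdps, Fdft1, Hmgcs1 and Tm7sf2 had all passed the 25% rule as higher in IR. With them left out, 8 of the remaining sterol enzymes passed it as higher in IR and 0 as higher in NC. The median log2 ratio was then 0.40. Among all genes 15.2% were higher in IR and 17.2% higher in NC. Sc5d, Mvk, Dhcr7, Pmvk, Nsdhl and Hsd17b7 had under 1% of their exon length in overlap and of their words shared, and Lss had 3.53% and 2.9%.

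**Figure D2:**
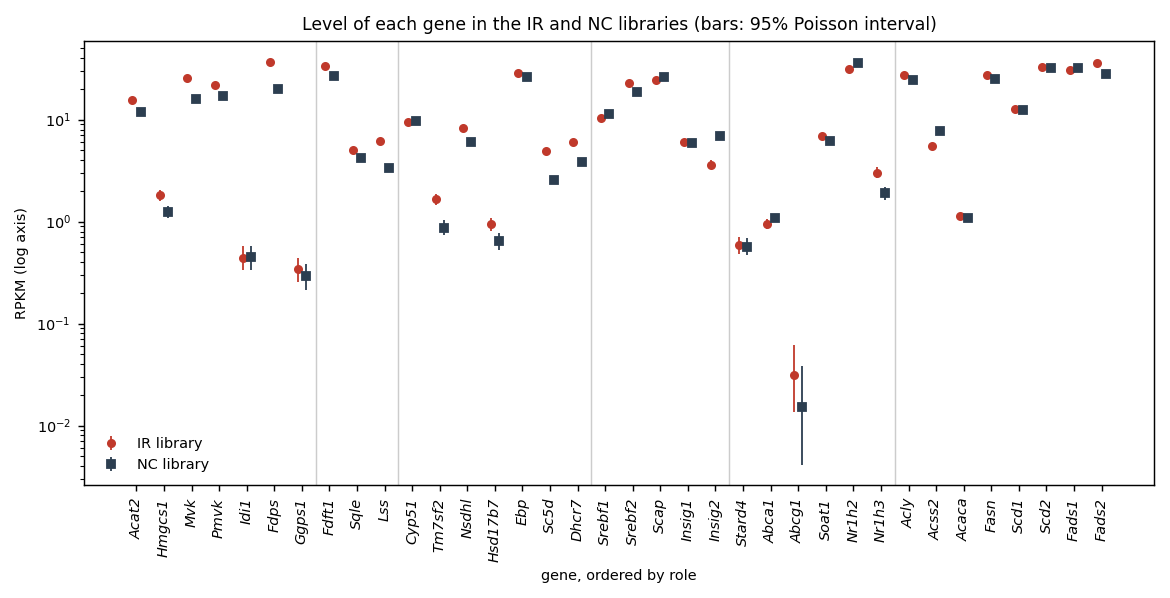
Level of each member in the IR and NC libraries in RPKM (reads scaled to exon length and library size, log axis), with bars for the Poisson counting interval. Fdps is at 20.05 in NC and 36.7 in IR, while Scd2 is at 32.2 and 32.6.

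Levels per length, shown in the plot of levels by gene, place the sterol genes among the others. In RPKM (reads scaled to exon length and library size), Fdps was the 10th most abundant member in NC with 20.05 and the first in IR with 36.7. The next members in IR were Fads2 at 35.8, Fdft1 at 33.7 and Scd2 at 32.6. In NC the order was led by Nr1h2 at 36.3, Scd2 at 32.2 and Fads1 at 32.0. These orders depend on the exon union as length. With the longest transcript as length, Nr1h2 lay slightly above Fdps in IR. Of the 36 members, 16 reached 10 RPKM in each library, and with the length of the longest transcript 20 did so in IR and 18 in NC. The lowest members were Abcg1, at 0.0314 RPKM in IR and 0.015 in NC, followed by Ggps1, Idi1 and Stard4, all under 1 RPKM in both.

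The genes that control SREBP differed in direction, with 1 counting interval above equality (Srebf2), 3 below it and 1 that included it. The widest difference among them was that of Insig2. This membrane protein, which retains SCAP in the endoplasmic reticulum and is encoded at chr1:121304353-121332589 on the minus strand (GRCm38), had 439 reads in IR and 871 in NC. NC was 1.9-fold higher (1.69 to 2.14), and 2.18% of all genes had a lower ratio of IR over NC. Its relative Insig1, itself a classic SREBP target, had 651 reads in IR and 670 in NC, a ratio of 1.02 (0.909 to 1.13). Per length, Insig2 stood at 0.601 times Insig1 in IR (0.531 to 0.679) and at 1.16 times in NC (1.05 to 1.28). The order of the INSIG genes was therefore opposite in the libraries, also with the longest transcript as length.

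The gene of SREBP2, Srebf2, had 5772 reads in IR and 4891 in NC and was 1.23-fold higher in IR (1.19 to 1.28), just short of the 25% rule. That of SREBP1, Srebf1, had 2024 and 2314 reads, a ratio of 0.913 (0.860 to 0.970). Scap had 6393 and 7040 reads, a ratio of 0.948 (0.917 to 0.981), with 13.2% of its exon sequence overlapping 5830462I19Rik. Both of these lay slightly lower in IR, and their ratios passed equality when trends over gene length and GC content were removed. Srebf2 was the more abundant SREBP gene in each library, at 2.24 times Srebf1 per length in IR (2.13 to 2.35) and 1.66 times in NC (1.58 to 1.74). The 5 control genes had a median log2 ratio of -0.08. By the 25% rule 1 of them (20%), Insig2, was lower in IR and 0 were higher, against 17.2% and 15.2% of all genes.

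Other genes of SREBP processing had ratios on both sides of equality. Of 8 such genes, 3 (37.5%) were higher in NC by the 25% rule and 0 were higher in IR, against 17.2% and 15.2% of all genes, with a median of -0.13. A further 3 had ratios above equality with intervals that included it, the highest being Rnf139, a ubiquitin ligase, with 93 reads in IR and 79 in NC (0.29, -0.15 to 0.75). Paqr3, which anchors SCAP and SREBP at the Golgi, had 327 reads in IR and 689 in NC, a log2 ratio of -1.01 (-1.21 to -0.82). It overlaps Bmp2k over 15.7% of its exon sequence. Mbtps1, the first protease that cuts SREBP, had 6728 and 10450 reads (-0.57, -0.62 to -0.53), and Rnf145, a ubiquitin ligase of the endoplasmic reticulum that acts on SCAP, had 2277 and 3520 (-0.57, -0.64 to -0.49).

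**Figure D3:**
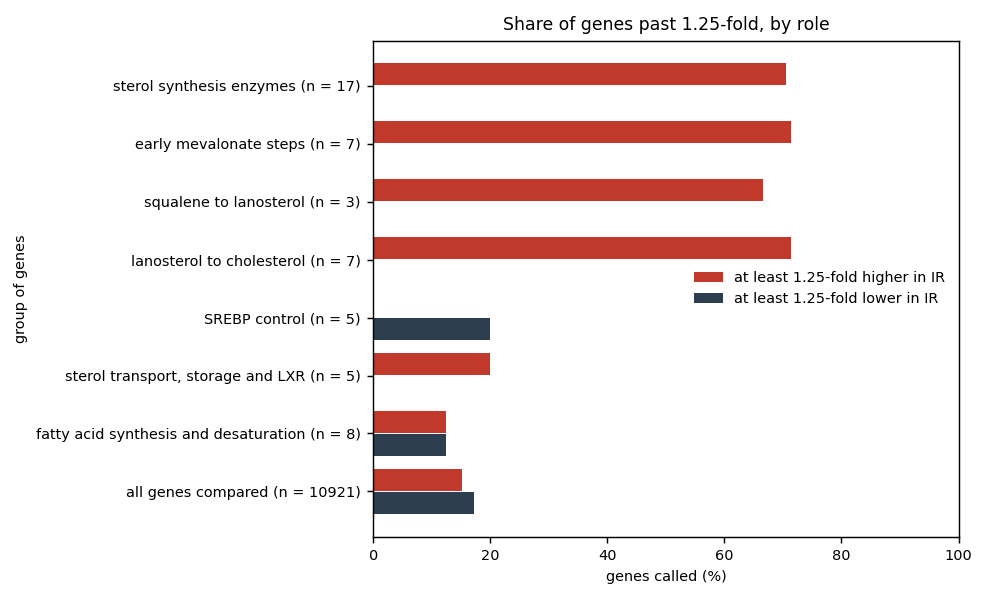
Percent of the genes in each role group that were higher in IR (red) or higher in NC (dark) by the 25% rule, with all 10921 genes compared at the bottom. The sterol synthesis enzymes reach 70.6% higher, the fatty acid genes 12.5% in each direction, and all genes 15.2% and 17.2%.

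Fatty acid synthesis and desaturation showed no such shift. Of its 8 genes, 1 was higher in IR by the 25% rule and 1 higher in NC, or 12.5% each way, close to the shares among all genes in the plot of called genes by role. The median log2 ratio was 0.05. Fasn, the fatty acid synthase and the member with the most reads, had 10589 reads in IR and 9922 in NC (1.11-fold, 1.08 to 1.15). Acly, which makes cytosolic acetyl-CoA from citrate, had 5069 and 4696 (1.13-fold, 1.08 to 1.17). Their intervals excluded equality, yet the differences were small. Acaca, the acetyl-CoA carboxylase that makes malonyl-CoA, had 672 reads in each library, a ratio of 1.04 (0.937 to 1.16), and 52.6% of its 50-base words also occur elsewhere, most in Gm5182.

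The desaturases were abundant, and those that put in the first double bond hardly differed. Scd1 had 2166 reads in IR and 2216 in NC, a ratio of 1.02 (0.962 to 1.08), and Scd2 had 6211 and 6407, a ratio of 1.01 (0.977 to 1.05). Scd2 was 2.57 times Scd1 per length in IR and 2.59 times in NC. The desaturases of polyunsaturated fatty acids differed more. Fads2 had 4116 reads in IR and 3355 in NC (1.28-fold, 1.22 to 1.34), while Fads1 had 5109 and 5613, a ratio of 0.95 (0.915 to 0.987). The ratio of Fads2 to Fads1 per length was 1.18 in IR and 0.873 in NC, and with the longest transcript as length it was 0.885 and 0.657, so which gene is the more abundant in IR depends on the length used. Acss2, which makes acetyl-CoA from acetate and is a known SREBP target, went the other way with 1963 reads in IR and 2857 in NC, 1.39-fold higher in NC (1.32 to 1.48). Summed, the fatty acid genes took 1029 CPM in IR and 981 in NC, a 1.05-fold difference (1.03 to 1.06).

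Of the 5 compared members of sterol transport, storage and oxysterol sensing, 1 (20%) was higher in IR by the 25% rule and 0 lower. Among all genes these shares were 15.2% and 17.2%. Nr1h3, the liver X receptor of alpha type, had 265 reads in IR and 173 in NC (1.59-fold, 1.32 to 1.95). Nr1h2, the receptor of beta type, was far more abundant with 3695 and 4438 reads and had a ratio of 0.869 (0.832 to 0.908). Per length Nr1h2 stood at 10.5 times Nr1h3 in IR and 19.2 times in NC. The export genes that these receptors drive were not higher in IR beyond counting error. Abca1, which loads cholesterol onto apolipoproteins, had 343 reads in IR and 411 in NC (0.872, 0.753 to 1.01), and Abcg1 had 8 and 4 reads, too few to compare. Soat1, which esterifies cholesterol for storage, had 2367 and 2212 reads (1.12-fold, 1.05 to 1.18). Stard4, a cytosolic sterol carrier, had 114 and 116 reads, a ratio of 1.03 (0.785 to 1.34).

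Lists of neighbouring pathways were described by the same rule, which 15.2% of all genes passed as higher in IR and 17.2% as higher in NC. Of 8 further sterol synthesis genes and partners, 3 (37.5%) were higher in IR by it and 0 higher in NC, with a median of 0.14. Their highest ratio was that of Cyb5b, a cytochrome b5 of the mitochondrial outer membrane, with 272 and 182 reads (0.64, 0.37 to 0.92). Lipoprotein uptake and sterol traffic had 2 genes higher (13.3%) and 4 lower (26.7%) among 15, with a median of 0.01. Tmem97, a sterol-responsive membrane protein, had 2383 reads in IR and 1587 in NC (0.65, 0.56 to 0.74). Lrp1, a large endocytic receptor, had 24304 and 49754 reads (-0.97, -0.99 to -0.95), and Soat2, the second cholesterol acyltransferase, had 396 and 750 (-0.86, -1.04 to -0.68). This list thus held wide differences in both directions around a median near 0.

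Among the genes that use isoprenoids for dolichol, ubiquinone and prenyl groups, 2 of 9 were higher (22.2%), 0 lower, and the median was -0.05. Pdss1, a subunit of the synthase of the ubiquinone side chain, had 67 reads in IR and 41 in NC (0.74, 0.19 to 1.37). Of 18 other fatty acid enzymes and carriers, 5 were higher (27.8%) and 2 lower (11.1%), with a median of 0.13. Fabp5, a fatty acid binding protein, had 4513 and 2770 reads (0.77, 0.70 to 0.84), and Elovl7, an elongase, had 99 and 152 (-0.55, -0.94 to -0.18). Glycerolipid synthesis had 1 of 15 genes higher (6.67%) and 0 lower. The higher one was Pcyt1a of phosphatidylcholine synthesis, with 757 and 500 reads (0.66, 0.50 to 0.83). Fatty acid oxidation had 0 of 15 higher and 1 lower (6.67%). The lower one was Etfa, an electron carrier of that pathway, with 1379 and 2119 reads (-0.56, -0.66 to -0.46). The medians of these last lists were -0.03 and -0.11. Among all genes 15.2% were higher and 17.2% lower by the rule.

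**Figure D4:**
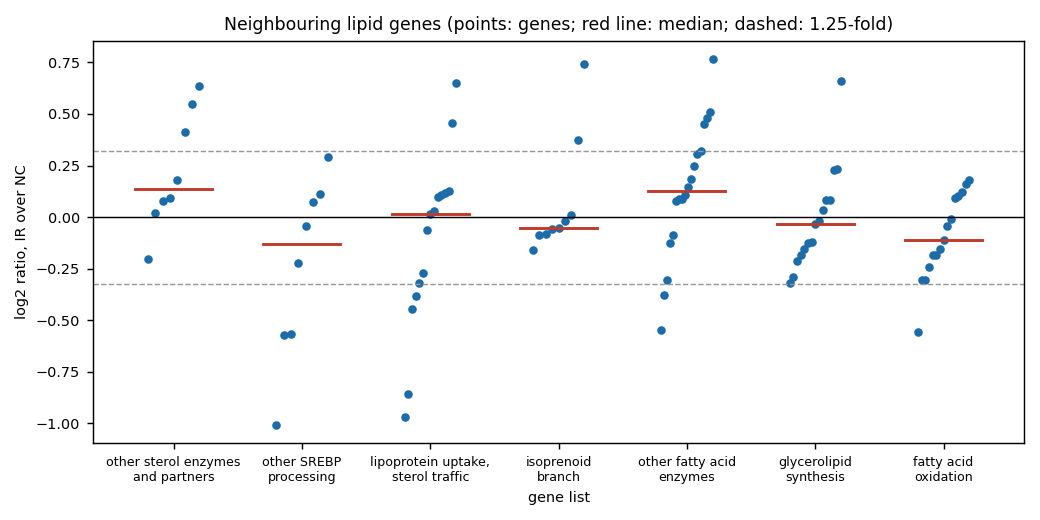
Log2 ratio of IR over NC (vertical axis) for the compared genes of 7 lists of neighbouring pathways (points), with each list's median (red line) and the 25% rule (dashed). The medians lie between -0.13 and 0.14, and the lowest point is Paqr3 at -1.01.

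As the plot of ratios by list shows, the medians of the 7 neighbouring lists lay between -0.13 and 0.14, against 0.45 for the sterol synthesis enzymes. Across the 35 members the ratio had a Spearman correlation of -0.23 with exon length, -0.02 with GC content and -0.23 with mean log2 CPM, given as a description over genes of the same 2 libraries. Over the 17 sterol enzymes these were 0.31, 0.21 and 0.05. With the trend over length and GC content of all genes removed, the median of the sterol enzymes was 0.46, and with the trend over expression removed it was 0.47.

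The promoters printed above were compared in their letters. RefSeq promoters were found for 28 of the 36 members, with 37 promoters in all, and the 250 bases before each start were searched on both strands. CCAAT was found in the promoters of 13 of 14 sterol enzyme genes (92.9%), all but Acat2, against 40.6% of the 8212 compared genes with a promoter. By promoter, 13 of 17 held it (76.5%), against 35.1% of those of compared genes and 33.8% of all 32851 promoters. At least 2 matches were found in 47.1% of the sterol enzyme promoters and in 12.9% of those of compared genes. Mvk held 5, at 173, 120, 67, 50 and 14 bases before the start. Of the 5 fatty acid genes with a promoter 2 held CCAAT (40%), among them Fasn, with 3 matches. Of the 9 other members with a promoter, 5 held it (55.6%).

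The strict sterol regulatory element TCACNCCAC was found for 1 sterol enzyme, Hmgcs1, whose match spans the bases from 137 to 129 before the start. By promoter this is 5.88%, against 1.05% of all promoters. CACGTG was found in 3 of 17 promoters (17.6%), those of Hsd17b7, Sc5d and Dhcr7, against 8.42% for compared genes. It was also found in 3 of 15 promoters (20%) of the members that are neither sterol enzymes nor fatty acid genes. Genes with a CCAAT match included both those with the highest ratios, such as Sc5d and Lss, and those near equality, such as Cyp51, Idi1 and Ebp. Insig2, which was lower in IR, held 3 matches as well. A match describes letters only.

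**Figure D5:**
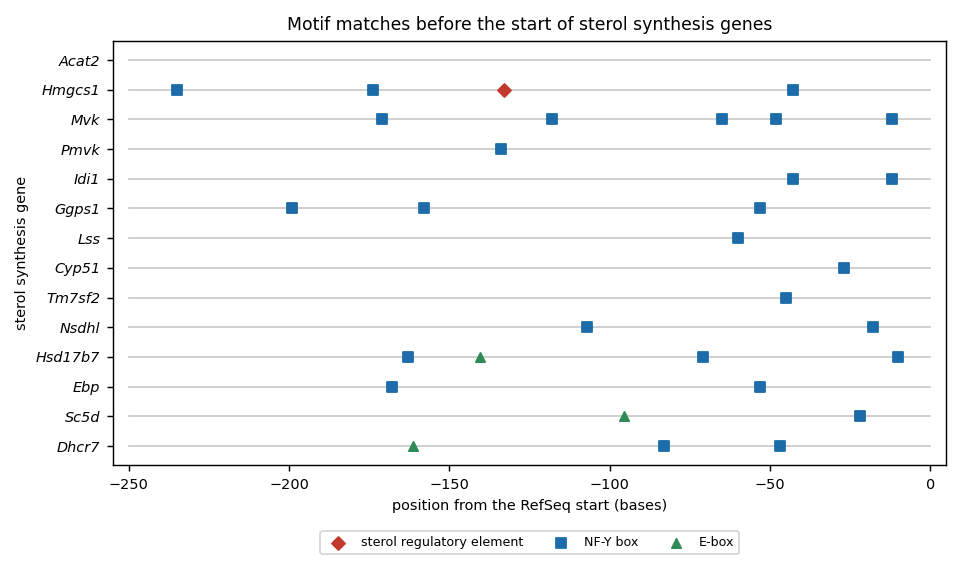
Matches to the 3 motifs in the 250 bases before the RefSeq start of the 14 sterol synthesis genes with a promoter (horizontal axis: bases from the start; 1 line per gene, with the matches of all its promoters). CCAAT (the NF-Y box) is found for all but Acat2, while the strict sterol regulatory element appears for Hmgcs1.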

How the data were processed

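Mouse RNA from 2 libraries, 1 labelled IR and 1 labelled NC, was sequenced after removal of ribosomal RNA, per the labels' protocols. The authors deposited raw read counts per gene. The build was mm10, with HTSeq 0.9.1, cutadapt 1.9.3, edgeR and HISAT2 named in the submitters' processing notes. The annotation release and the strand setting are not given in the sources used here. A further 2 value columns were not used.

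TMM normalization (R 4.3.3, edgeR 4.0.16) gave factors of 0.991 for IR and 1.01 for NC. Log2 ratios used a prior count of 2 and the 10921 genes with at least 50 reads over both libraries. Intervals are exact (Clopper-Pearson for ratios, Poisson for levels) at 95% and cover counting error only, and reads copied by PCR may make them too narrow. The floor of 3 counts is 0.086 CPM in IR and 0.0824 CPM in NC. A gene was called when the higher library exceeded the other by at least 25% or, in the stricter rule, 2-fold, and its interval excluded a ratio of 1. No p-value was computed, since each group has 1 library. RPKM used the exon union of GENCODE M21 on GRCm38, which held 14584 of 14694 identifiers (99.3%). Sequences came from RefSeq promoters on GRCm38.p6. The procedure was tested on simulated data that held counting noise only, so the test cannot bear on variation between replicate libraries. The members, lists, motifs and rules were chosen with earlier results of these data known. All members may be named, and of each other list up to 2 genes from the top and 2 from the bottom of the ratios and those called at 2-fold. The alternatives were 17 other settings of scaling, prior count, filter, depth, fold rule, trend, length and overlap, 1 of them (Msmo1 under its former symbol) added after seeing the data.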

Additional observations from a re-analysis of the deposited data

How the results depend on the processing

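Under the 17 alternatives no direction of a called gene or count was reversed. With a fold rule of 1.5, chosen in place of both rules, 6 of 17 sterol synthesis enzymes were higher in IR. Of 8 fatty acid genes 0 were higher and 0 lower, and of all 35 members 7 were higher and 1 lower. The share of all genes past this rule was not computed, so these counts cannot be set against it. Under the other alternatives the sterol enzymes past the 25% rule numbered 8 to 13. The count of 8 came without members of overlapping exons, which leaves fewer enzymes. That of 13 came with Msmo1 under its former symbol, added after seeing the data. In the main setting 15.2% of all genes were higher in IR by this rule. The median of the sterol enzymes ranged from 0.40 to 0.54 and that of the fatty acid genes from 0.02 to 0.08. The median of the SREBP control genes turned sign (-0.16 to 0.05), as did that of the transport genes (-0.02 to 0.10). Centring on length and GC content moved Srebf1 to 0.00064, Srebf2 to 0.46, Scap to 0.09, Acly to 0.25, Fasn to 0.32 and Fads1 to -0.0018, and the cause was not tested. The signs of Cyp51, Idi1, Insig1, Scap, Scd2, Srebf1 and Stard4 turned under at least 1 alternative. Other scalings moved the median of all genes to between -0.034 and 0.018. Depth limits Idi1, Ggps1, Stard4 and Abcg1. No replicate could be left out, since each group has 1 library. No paired analysis was possible because each group has 1 library, and both carry the number 4.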
